A study of Mus musculus with 26 samples.

Results

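The genes described here are 40 mouse genes whose products cut, protect or crosslink the extracellular matrix, of 45318 genes in the count files. They were listed by function: 7 secreted and 3 membrane-bound matrix metalloproteinases (MMPs), 3 tissue inhibitors of metalloproteinases (TIMPs), 7 ADAMs, 4 ADAMTSs, 5 genes of the plasminogen system, 5 cathepsins, 5 lysyl oxidases and heparanase. Earlier results of these data were known when the genes were listed. Their RNA was counted in 4T1 cells, an aggressive triple-negative mammary carcinoma line from a BALB/c mouse, with and without the long noncoding RNA MaTAR25. The wild type control has 2 libraries, the MaTAR25-/- clone KO1 has 3 and the MaTAR25-/- clone KO2 has 4, so each knockout group is a single clone. According to the study's methods, the deletions span the transcription start site of MaTAR25 and were made with pairs of guides and Cas9, followed by single-cell sorting, and the control cells carried a guide against Renilla luciferase. All cells were cultured without treatment. Pooled lists of ChIRP-seq peaks, which mark DNA pulled down with MaTAR25 oligos, were also used for 4T1 cells and for the cells titled NDL, whose label gives the FVB strain and the MMTV-PyMT genotype while the study calls them MMTV-Neu-NDL.

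Secreted MMPs are released as inactive proenzymes and together degrade collagens, laminins, fibronectin and proteoglycans. Membrane-bound MMPs and ADAMs act at the cell surface, where ADAMs release growth factors and receptors, and TIMPs bind the active site of MMPs and of some ADAMs. The plasminogen activators and cathepsins form separate proteolytic systems that can also activate proenzymes, whereas lysyl oxidases crosslink collagen and elastin and so stiffen the matrix. In mammary tumors much of this output comes from stromal fibroblasts and macrophages, and a tumor cell line supplies only its own share.

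Promoter sequences are shown for the 6 genes that hold a match to TGANTCA, a pattern for the AP-1 motif with N as any base. Inducible MMP genes are known for the AP-1 element. The middle base of the match is C or G in every gene but Serpinb5, where it is A. Of the 6 genes 5 differ between the clones below, as do 33.3% of the 36 genes tested and 19.6% of all genes. Sequences are from RefSeq (GRCm38.p6), 5′ to 3′ on the gene's strand, and give the 150 bases that end just before the annotated start. Capitals mark the TGANTCA match and, where present, TATAAA. In order, they lie at chr9:7445672-7445821, chr9:7502192-7502341, chr9:7272364-7272513, chr11:46055834-46055983, chr7:24462333-24462482 and chr1:106861025-106861174, all on the plus strand.
Mmp3: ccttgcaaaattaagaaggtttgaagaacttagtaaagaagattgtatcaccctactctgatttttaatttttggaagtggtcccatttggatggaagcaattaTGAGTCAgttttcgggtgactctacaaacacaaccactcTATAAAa
Mmp10: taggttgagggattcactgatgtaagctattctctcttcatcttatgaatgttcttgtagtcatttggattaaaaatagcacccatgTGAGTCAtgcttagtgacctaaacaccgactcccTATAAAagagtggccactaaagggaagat
Mmp13: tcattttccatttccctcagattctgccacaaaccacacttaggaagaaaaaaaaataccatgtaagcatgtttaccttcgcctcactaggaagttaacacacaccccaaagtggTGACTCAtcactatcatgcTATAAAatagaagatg
Adam19: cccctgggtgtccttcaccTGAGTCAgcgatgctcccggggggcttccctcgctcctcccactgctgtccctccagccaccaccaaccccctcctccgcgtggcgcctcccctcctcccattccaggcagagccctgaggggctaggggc
Plaur: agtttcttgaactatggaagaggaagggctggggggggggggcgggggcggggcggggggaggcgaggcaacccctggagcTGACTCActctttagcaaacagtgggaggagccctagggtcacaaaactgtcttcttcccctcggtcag
Serpinb5: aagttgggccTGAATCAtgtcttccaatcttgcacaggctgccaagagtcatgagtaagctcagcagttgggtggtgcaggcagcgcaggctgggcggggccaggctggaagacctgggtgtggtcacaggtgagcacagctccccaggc

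The promoter table holds windows, from 250 bases before to 50 after the start, for 24 of the 40 genes (26 windows). TGANTCA was found on either strand in 6 of those genes, and in 7.808% of the 32851 windows of all genes. TATAAA was found in 5 of them and in 13.62% of all windows. Both motifs were found in Mmp3, Mmp10 and Mmp13, and in 1.543% of all windows. In these 3 genes the AP-1 match begins at -46, -63 and -35, where -1 is the last base before the start. A match of letters is not a binding site, and binding by AP-1 was not measured.

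The RNA libraries held between 25367211 and 61110585 gene counts. Levels are given as counts scaled to a common library total (CPM) after TMM scaling, which removes differences in depth and composition. MaTAR25 itself had 30 to 35 counts in control, 0 to 7 in KO1 and 1 to 11 in KO2 libraries. Libraries of the same group correlated at 0.987 to 0.991 for KO1 and 0.960 to 0.979 for KO2, and the control pair at 0.996 (Pearson's r over genes, log2 scale). The labels do not say whether replicates were separate cultures, so p-values measure the spread between these libraries, which may be technical. Epithelial markers summed to 3725 to 3911 CPM in control, 5063 to 7337 in KO1 and 2197 to 4541 in KO2, and all 9 libraries were epithelial by this list, although 1 of its 8 genes was at 0 throughout. Of 6 fibroblast markers 4 were at 0 in all libraries, and the list summed to 18.5 to 22.3 CPM in control libraries and 11.8 to 47.3 CPM over the knockout libraries. Of 6 leukocyte markers 4 stayed under 1 CPM, with sums of 8.15 to 9.66, 14.3 to 29.4 and 4.91 to 29.0. Endothelial markers summed to at most 1.77 CPM. Whether cells of these types had a part in any result below was not tested, and in bulk RNA fewer cells of a type and less RNA per cell cannot be told apart.

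Across the 7 knockout libraries the matrix genes that passed the test were mostly higher than in control. The stromelysins Mmp3 and Mmp10, the inhibitors Timp1 and Timp2, the cathepsins Ctsd and Ctsl, the crosslinkers Loxl1 and Loxl3 and the sheddase Adam19 rose, and Adam12 fell. These are 10 of the 36 genes tested (27.8%), called at an adjusted p under 0.1 in edgeR, and the same call was made for 22.6% of all 15023 genes tested (11.9% higher and 10.7% lower). The median log2 fold change of the 36 genes was 0.59, compared with 0.06 over all genes. Of the 36 genes 5 reached the count filter in 2 libraries only through knockout cells, Mmp10 and Loxl1 among those called. For such genes a level over the filter in knockout cells was a condition of being tested, and the median and the rises include them. The knockout and control libraries did not overlap for 14 of the 36 genes (38.9%), 10 of them higher and 4 lower, compared with 34.4% of all genes (16.9% and 17.6%). Without control replicate 1 all of these calls but Loxl1 were lost, and the Loxl1 value is then set against a control count of 0. Without control replicate 2 all but Ctsd were lost. The share of all genes called was 2.95% and 3.61% in these fits, so the pooled result rests on both control libraries.

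Each clone was also compared with the same control libraries. In KO1, 13 genes were called (36.1%), 11 higher and 2 lower, against a background of 31.6% (15.9% higher and 15.7% lower). In KO2, 16 genes were called (44.4%), 13 higher and 3 lower, against 31.4% (16.5% and 15%). The higher genes include Mmp10 and Loxl1 in both clones, Mmp19 in KO1 and Serpine2 in KO2, which passed the filter only through knockout cells. No library of KO1 overlapped the control range for 23 genes (63.9%), 17 higher and 6 lower, against 66.9% of all genes (33.2% and 33.7%). For KO2 this held for 17 genes (47.2%), 13 higher and 4 lower, against 46.9% (22.8% and 24.1%). Calls in both clones and in the same direction were made for 10 genes (27.8%), compared with 18.4% of all genes. Of these, 8 were higher (Mmp3, Mmp10, Timp1, Timp2, Ctsd, Ctsl, Loxl1 and Loxl3) and 2 lower (Adam9 and Adam12). None of the 36 was called in opposite directions, as were 0.366% of all genes. Because the clones share their controls, these counts are not independent. Fewer of the 36 genes, and a smaller share of all genes, were called in either clone when a control library was left out. The clones themselves differed in 12 genes (33.3%), 8 higher and 4 lower in KO2, against a background of 19.6% (10.2% and 9.43%), in a fit that also takes its filter, scaling and spread from the control libraries. With the control libraries left out of the fit Plaur was lost and the background was 13.6%. The libraries of the clones did not overlap for 13 genes (36.1%), 8 higher and 5 lower in KO2, against 24.5% (11.9% and 12.6%).

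**Figure D1:**
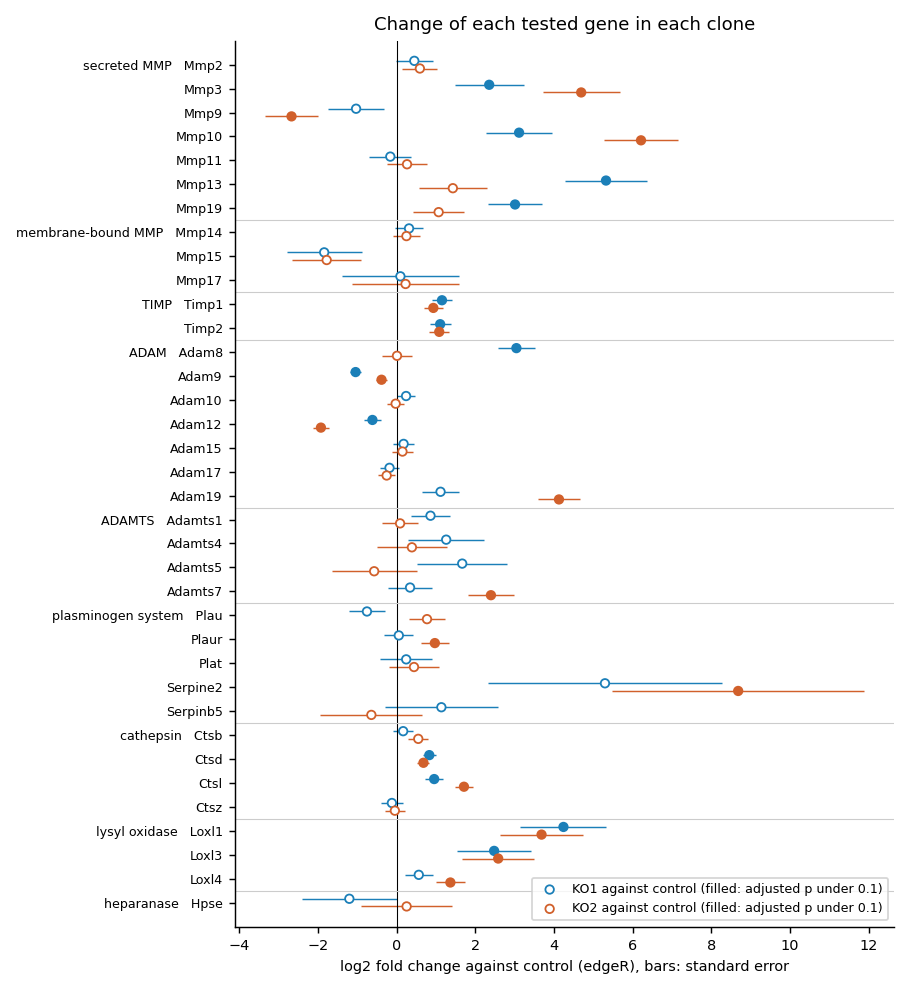
Log2 fold change of each of the 36 tested genes in KO1 (blue) and KO2 (orange) against control, with standard errors from edgeR; filled points have an adjusted p under 0.1. Timp1, Timp2, Ctsd, Loxl1 and Loxl3 sit at similar positions in both clones, whereas Mmp13, Adam8 and Adam19 sit far apart.

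Of the 4 genes not tested, Timp3, an inhibitor that is held in the matrix, had 13 and 7 counts in control, 1, 0 and 1 in KO1 and 0, 0, 0 and 1 in KO2. Every control library thus had more Timp3 counts than any knockout library. With no filter on low counts Timp3 was called in the pooled comparison and in each clone. Pooled over libraries and scaled for depth, the control level was 24.1 times the knockout level, with an exact 95% interval of 7.13 to 126 that covers counting error only. Its exons overlap those of Syn3 on the opposite strand, and no source states whether counting used the strand. Loxl2 had 7 and 4 counts in control, 1, 0 and 2 in KO1 and 2, 0, 6 and 1 in KO2, a ratio of control to knockout of 3.31 (1.32 to 8.19). Lox, the founding lysyl oxidase, had 0 and 1 counts in control, 2, 0 and 0 in KO1 and 0 in all KO2 libraries. Ctss, the cathepsin of antigen-presenting cells, had at most 2 counts in a library. Of the 36 genes tested, 5 (Mmp10, Mmp17, Mmp19, Serpine2 and Loxl1) reached the count filter in 2 libraries only through knockout cells.

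Among the secreted MMPs, the stromelysins Mmp3 and Mmp10 rose in both clones. Mmp3, which cleaves proteoglycans and fibronectin and activates other MMPs, stood at 13.1 and 5.37 CPM in control, at 9.94, 28.3 and 104 in KO1, and at 270, 368, 153 and 166 in KO2. All KO2 libraries were above all KO1 libraries, and KO1 replicate 1 lay between the control libraries. Mmp3 rose in KO1 (log2 fold change 2.35 ± 0.88 SE, adjusted p = 0.0827 by edgeR) and rose further in KO2 (4.69 ± 0.98, adjusted p = 0.0101), and KO2 exceeded KO1 by 2.34 ± 0.72 (adjusted p = 0.0653). The KO1 call was lost without KO1 replicate 3 (adjusted p = 0.290), KO2 replicate 1 (0.103) or either control library (0.176 without replicate 1 and 0.363 without replicate 2), and the KO2 call without control replicate 2 (0.107). The difference between clones was lost without KO1 replicate 1 (0.127), KO1 replicate 2 (0.218) or KO2 replicate 1 (0.113).

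Mmp10, stromelysin-2, was close to the detection limit in control with 0.198 and 0.366 CPM (9 and 12 counts). It stood at 0.669, 2.39 and 4.22 CPM in KO1 and at 21.1, 7.96, 26.2 and 27.4 in KO2. The 3 groups did not overlap, with control lowest and KO2 highest. Mmp10 rose by 3.11 ± 0.85 (adjusted p = 0.0281) in KO1, and KO2 showed a rise of 6.21 ± 0.94 (adjusted p = 0.0029) on the log2 scale, and was 3.10 ± 0.65 higher in KO2 than in KO1 (adjusted p = 0.0194). The KO1 call was lost without control replicate 1 (0.201) or replicate 2 (0.119).

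Mmp13, collagenase-3, went the other way between clones. It stood at 0.724 and 0.915 CPM in control, at 4.49, 24.7 and 69.0 in KO1, and at 1.31, 2.86, 2.60 and 2.04 in KO2. Every KO1 library was above every KO2 library, and within KO1 the highest value was far above the lowest. Mmp13 rose in KO1 by 5.32 ± 1.05 (adjusted p = 0.00799), while for KO2 the log2 difference from control was 1.43 ± 0.86 (adjusted p = 0.260). In KO2 against KO1 its log2 fold change was -3.89 ± 0.72 (adjusted p = 0.0134). Pooled over clones, its log2 fold change of 4.22 ± 1.87 did not pass the test (adjusted p = 0.155), but passed in DESeq2 and in the fit with 3 groups.

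Mmp19, a broad-specificity MMP, had low levels of 0.110 and 0.244 CPM in control, 0.781, 2.16 and 1.33 in KO1 and 0.641, 0.337, 0.204 and 0.286 in KO2. KO1 lay above all other libraries. Mmp19 rose in KO1 by 3.01 ± 0.70 (adjusted p = 0.0149, and 0.145 without control replicate 1), and its log2 fold change in KO2 against KO1 was -1.94 ± 0.51 (adjusted p = 0.0388, and 0.166 without KO1 replicate 2). Its exons overlap Tmem198b on the opposite strand.

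Mmp9, gelatinase B, was the most abundant secreted MMP per exon length in control. It stood at 209 and 166 CPM in control, at 15.2, 140 and 119 in KO1 and at 35.7, 15.3, 43.9 and 22.2 in KO2. All knockout libraries were below both control libraries, and KO1 replicate 1 was at the level of KO2. Mmp9 fell in KO2, with a log2 fold change of -2.68 ± 0.66 (adjusted p = 0.0199, and 0.125 without control replicate 1). The values for KO1 (-1.03 ± 0.72, adjusted p = 0.324) and for both clones together (-1.74 ± 0.75, adjusted p = 0.147) did not pass, nor did the difference between the clones (-1.64 ± 0.61, adjusted p = 0.109). Mmp2, gelatinase A, ranged from 0.275 to 0.614 CPM and Mmp11, stromelysin-3, from 11.8 to 62.5 CPM over the 9 libraries, and neither was called in any comparison.

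Mmp3, Mmp10 and Mmp13 are neighbours in the MMP gene cluster of chromosome 9, which spans 427072 bp from Mmp13 to Mmp7 (GRCm38, GENCODE vM21). The 10 MMP genes counted there run Mmp13, Mmp12, Mmp1b, Mmp3, Mmp1a, Mmp10, Mmp8, Mmp27, Mmp20 and Mmp7. Mmp13 lies at 7272514 to 7283331, Mmp3 at 7445822 to 7455975 and Mmp10 at 7502352 to 7510240, all protein-coding and on the plus strand. The last 4 genes had at most 2 counts over all libraries. The collagenase copies Mmp1a and Mmp1b, between and beside the stromelysins, were at most 0.0439 CPM in control and 0.433 and 0.271 CPM in KO1. In KO2 they stood at 2.06 to 6.99 CPM for Mmp1a and 1.65 to 4.96 CPM for Mmp1b. Mmp1a and Mmp1b are close copies and reads may be split between them, and the annotated ends of Mmp1b and Mmp12 overlap on opposite strands. Mmp1a, Mmp12 and the flanking genes were chosen for naming after their values were seen. Mmp12, macrophage elastase, stayed at 0.0541 to 0.184 CPM in every library. Mmp1b, Mmp3, Mmp1a and Mmp10 were therefore highest in all KO2 libraries, and Mmp13 at the other side of Mmp12 was highest in all KO1 libraries. Beside the cluster, Dcun1d5 ranged from 69.6 to 120 CPM and Tmem123 from 56.5 to 117 CPM over the 9 libraries.

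**Figure D2:**
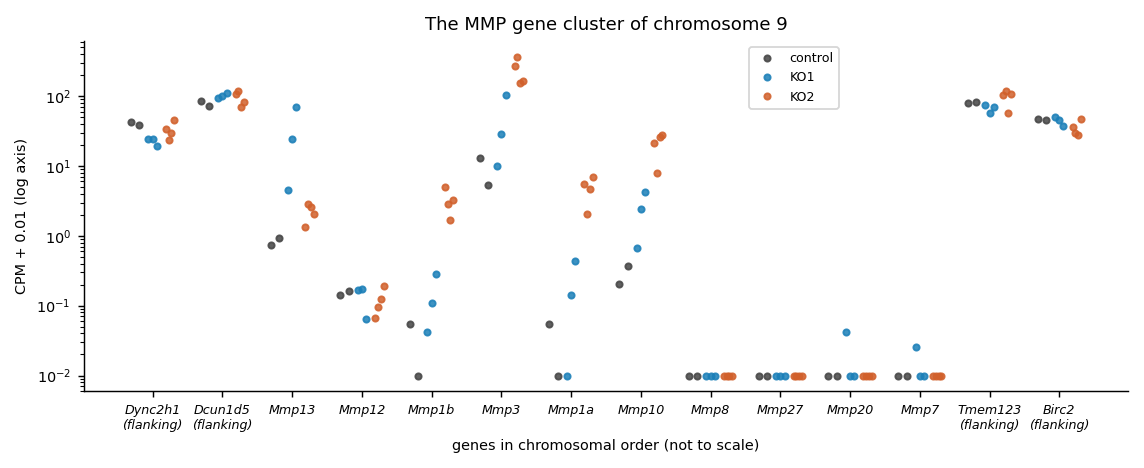
Level of the MMP genes of the chromosome 9 cluster and of a pair of flanking genes on each side, in chromosomal order, as CPM + 0.01 on a log axis; each point is a library (control grey, KO1 blue, KO2 orange). Mmp13 is highest in KO1, up to 69.0 CPM, and the 4 genes from Mmp1b to Mmp10 are highest in KO2, up to 368 CPM for Mmp3.

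The membrane-bound MMPs gave no call in the main fits. Mmp14 (MT1-MMP), which cleaves collagen at the cell surface and activates pro-Mmp2, stood at 163 and 161 CPM in control, at 267, 195 and 142 in KO1 and at 123, 270, 145 and 230 in KO2. The groups overlapped, and its log2 fold change was 0.27 ± 0.31 in both clones together (adjusted p = 0.586). Mmp15 (MT2-MMP) stood at 18.1 and 13.5 CPM in control and at 0.502 to 11.9 CPM in knockout cells. It lay below both control libraries in all 7 knockout libraries, yet its log2 fold change of -1.81 ± 0.76 did not pass (adjusted p = 0.136). Mmp15 was called in the pooled comparison by DESeq2, and without KO2 replicate 3 (11.9 CPM) in the pooled comparison and in each clone. In KO1 it was also called without KO2 replicate 1 or with KO2 left out of the fit. Other alternatives gave no call for Mmp15. Mmp17 was at most 0.299 CPM.

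Of the inhibitors, Timp1 and Timp2 rose in both clones, while the sparse counts of Timp3 given above were lower there. Timp1, a secreted inhibitor of most soluble MMPs, stood at 25.8 and 25.2 CPM in control, at 42.7, 57.6 and 69.4 in KO1 and at 43.1, 57.8, 54.4 and 38.9 in KO2. Timp2, which also takes part in the activation of pro-Mmp2 by Mmp14, stood at 245 and 258 CPM in control, at 724, 501 and 397 in KO1 and at 399, 596, 557 and 576 in KO2. No knockout library of either gene reached down to control. Timp1 rose by 1.03 ± 0.24 (2.04-fold, adjusted p = 0.0187) and Timp2 by 1.09 ± 0.24 (2.13-fold, adjusted p = 0.0146) on the log2 scale. Their differences between KO2 and KO1 were -0.22 ± 0.20 (adjusted p = 0.505) and -0.02 ± 0.21 (adjusted p = 0.955). With control replicate 1 left out the adjusted p was 0.177 for Timp1 and 0.168 for Timp2, and with control replicate 2 left out it was 0.181 and 0.141. In single clones, leaving out control replicate 1 or 2 also ended the KO2 call of Timp1 (0.149 and 0.161), and the calls of Timp2 in KO1 (0.130 and 0.108) and in KO2 (0.136 and 0.117). The exact permutation test, over all 36 splits of 9 libraries into 2 and 7, gave the smallest p it allows (0.0278) for both. It treats the knockout libraries as interchangeable although they come from 2 single clones. No share of all genes at this p is given, and 34.4% of all genes had knockout and control libraries without overlap. Of the other genes called in the pooled comparison, Adam12, Ctsd, Ctsl and Loxl1 also gave 0.0278, Mmp3, Mmp10 and Loxl3 gave 0.0556 and Adam19 gave 0.0833.

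Of the ADAMs, 4 of 7 were called in at least 1 clone, as were 44.3% of all genes. Adam8, a protease usually found on leukocytes and induced in aggressive tumors, stood at 14.7 and 16.1 CPM in control, at 58.9, 164 and 157 in KO1 and at 18.3, 11.0, 12.6 and 19.7 in KO2. KO1 was far above the other groups, which overlapped. Adam8 rose in KO1 by 3.04 ± 0.46 (8.23-fold, adjusted p = 0.00279), differed from control by 0.0056 ± 0.39 in KO2 (adjusted p = 0.995), and had a log2 fold change of -3.03 ± 0.35 in KO2 against KO1 (adjusted p = 0.00261). Adam19, a sheddase of neuregulin, was highest in the other clone, with 7.16 and 4.03 CPM in control, 12.5, 9.75 and 14.1 in KO1 and 148, 98.3, 40.2 and 105 in KO2. The 3 groups did not overlap for Adam19. It rose in KO2 by 4.12 ± 0.54 (17.4-fold, adjusted p = 0.00164), the KO1 value was 1.11 ± 0.48 (adjusted p = 0.120), and KO2 exceeded KO1 by 3.01 ± 0.42 (adjusted p = 0.00491). Pooled over both clones, its log2 fold change was 3.44 ± 1.23 (adjusted p = 0.0877), and this call was lost without any 1 of the 4 KO2 libraries (adjusted p from 0.103 to 0.110) or without control replicate 1 (0.330) or 2 (0.413). Exons of Adam8 and Adam19 overlap noncoding genes on the opposite strand.

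Adam12, a sheddase of EGF receptor ligands that is often raised in breast cancer, stood at 66.8 and 68.8 CPM in control, at 47.7, 50.2 and 34.4 in KO1 and at 14.1, 18.7, 18.5 and 19.9 in KO2. The groups were separate, with KO2 lowest. Adam12 fell in KO1 (log2 fold change -0.62 ± 0.21, adjusted p = 0.0622) and fell in KO2 too (-1.93 ± 0.20, adjusted p = 0.000621), and was lower in KO2 than in KO1 (-1.31 ± 0.18, adjusted p = 0.00474). Its pooled call (-1.22 ± 0.44, adjusted p = 0.0905) was lost without control replicate 1 (0.352), control replicate 2 (0.368), KO1 replicate 3 (0.117) or any 1 of the KO2 libraries (0.105 to 0.124). The KO1 call was lost without control replicate 1 (0.247), control replicate 2 (0.268) or KO1 replicate 3 (0.171), whereas the KO2 call stayed without each library in turn.

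Adam9 stood at 306 and 330 CPM in control, at 154, 151 and 156 in KO1 and at 219, 252, 229 and 272 in KO2, again without overlap but with KO1 lowest. It fell in KO1 (log2 fold change -1.05 ± 0.14, adjusted p = 0.00147) and less in KO2 (-0.39 ± 0.13, adjusted p = 0.0602), and the clones differed by 0.66 ± 0.12 (adjusted p = 0.0127). The KO2 call was lost without control replicate 1 (0.224), control replicate 2 (0.349) or KO2 replicate 1 (0.113). Adam10 and Adam17, the main sheddases of Notch and of TNF, ranged from 91.4 to 176 CPM and from 67.7 to 130 CPM. Adam15 ranged from 38.1 to 69.0 CPM. None of these 3 was called in any comparison.

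The ADAMTSs are secreted proteases, several of which cleave aggrecan and versican. Adamts7 stood at 4.94 and 3.14 CPM in control, at 7.36, 5.08 and 2.87 in KO1 and at 30.2, 10.7, 12.8 and 31.3 in KO2. All KO2 libraries were above all others. Adamts7 rose in KO2 by 2.39 ± 0.58 (adjusted p = 0.0184) and was 2.06 ± 0.49 higher than in KO1 (adjusted p = 0.0283). The first call was lost without control replicate 1 (0.104) or 2 (0.167), and the second without KO1 replicate 2 (0.119). Its exons overlap Tbc1d2b on the opposite strand. Adamts1 was the most abundant at 58.3 to 280 CPM, Adamts4 ranged from 0.884 to 20.0 CPM and Adamts5 from 0 to 1.80 CPM, and none of these was called.

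In the plasminogen system the activator and its receptor were both higher in KO2 than in KO1. Plau, the urokinase-type activator, stood at 275 and 203 CPM in control, at 85.4, 148 and 190 in KO1 and at 238, 436, 266 and 687 in KO2. Plaur, the urokinase receptor, stood at 108 and 89.1 CPM in control, at 73.6, 118 and 115 in KO1 and at 188, 314, 133 and 137 in KO2. The clones did not overlap for either gene, and for Plau the control libraries lay between and within them. KO2 exceeded KO1 by 1.53 ± 0.40 for Plau (adjusted p = 0.0400) and by 0.92 ± 0.31 for Plaur (adjusted p = 0.0858). Against control, Plau did not pass in either clone (for KO1 -0.76 ± 0.45 with an adjusted p of 0.253, for KO2 0.77 ± 0.45 with one of 0.243), and Plaur passed in KO2 (0.97 ± 0.36, adjusted p = 0.0827). The difference between clones was lost for Plau without KO1 replicate 1 (0.131) or 2 (0.137), and for Plaur without any KO1 library (0.149 to 0.251), KO2 replicate 1 (0.135) or KO2 replicate 2 (0.104). The Plaur call against control was lost without control replicate 1 (0.231), control replicate 2 (0.356), KO1 replicate 2 (0.108), KO1 replicate 3 (0.106) or KO2 replicate 1 (0.120).

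The serpins of this group varied widely within the KO2 clone. Serpine2, the inhibitor protease nexin-1, had 5 and 2 counts in control, 336, 150 and 14 in KO1 and 4749, 401, 2 and 22 in KO2. The KO2 call (log2 fold change 8.68 ± 3.21, adjusted p = 0.0808) therefore came from libraries that span the control level, and it was lost without KO2 replicate 1 (0.123), KO1 replicate 1 (0.106), KO1 replicate 2 (0.109), control replicate 1 (0.312) or control replicate 2 (0.318). Serpinb5, known as maspin, stood at 11.2 and 14.3 CPM in control, 17.9 to 34.4 CPM in KO1 and 2.20, 1.90, 28.3 and 0.123 CPM in KO2, and was not called. Without KO2 replicate 3, which stood apart at 28.3 CPM, it was called in KO2 (log2 fold change -3.22, adjusted p = 0.0201, compared with -0.65 and 0.750 over all libraries) and between the clones (-4.35, adjusted p = 0.00965, compared with -1.78 and 0.340). Plat, the tissue-type activator, ranged from 3.03 to 16.8 CPM and was not called.

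Cathepsins are lysosomal proteases that tumor cells can also secrete. Ctsd, the aspartic cathepsin D, stood at 202 and 242 CPM in control, at 409, 356 and 416 in KO1 and at 330, 399, 322 and 371 in KO2. Ctsl, cathepsin L, stood at 306 and 372 CPM in control, at 520, 640 and 804 in KO1 and at 1201, 1317, 934 and 974 in KO2. Neither gene had a knockout library at the control level, and for Ctsl the clones were separate too. Exons of Ctsd overlap Gm49369 and those of Ctsl overlap Gm49230, both on the same strand. Those of Ctsl also overlap Gm47123 on the opposite strand. Ctsd rose by 0.74 ± 0.15 (1.67-fold, adjusted p = 0.0123) and Ctsl by 1.43 ± 0.34 (2.69-fold, adjusted p = 0.0205) on the log2 scale. Ctsl was 0.76 ± 0.19 higher in KO2 than in KO1 (adjusted p = 0.0332), a call that was lost without KO1 replicate 1 (0.117) or KO1 replicate 2 (0.134). Without control replicate 1 the pooled calls of Ctsd (0.187) and Ctsl (0.214) were lost, and without control replicate 2 that of Ctsl (0.144). Leaving out control replicate 1 also ended the calls in KO1 of Ctsd (0.101) and Ctsl (0.147) and the call in KO2 of Ctsd (0.163). The cysteine protease genes Ctsb and Ctsz were abundant in all libraries at 282 to 605 CPM and 177 to 294 CPM and were not called.

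Of the lysyl oxidases, Lox and Loxl2 were nearly silent, and Loxl1, Loxl3 and Loxl4 were measured. Loxl1, which crosslinks elastin, stood at 0.110 and 0 CPM in control (5 and 0 counts), at 1.20, 1.56 and 0.839 in KO1 and at 1.45, 0.926, 0.158 and 0.736 in KO2. Loxl3 stood at 2.63 and 4.55 CPM in control, at 11.8, 13.7 and 34.3 in KO1 and at 54.5, 10.1, 15.1 and 5.89 in KO2. Loxl4, the most abundant member, stood at 104 and 114 CPM in control, at 184, 144 and 154 in KO1 and at 374, 363, 137 and 246 in KO2. For these 3 genes all knockout libraries were above both control libraries. Loxl1 rose by 3.97 ± 1.08 (adjusted p = 0.0345) and Loxl3 by 2.53 ± 0.87 (adjusted p = 0.0769) on the log2 scale. For Loxl4 the pooled value was 1.07 ± 0.43 (adjusted p = 0.124), it rose in KO2 (1.36 ± 0.36, adjusted p = 0.0250), and the KO1 value was 0.56 ± 0.36 (adjusted p = 0.291). None passed the test between the clones (adjusted p = 0.628, 0.939 and 0.115).

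These calls depended on single libraries. For Loxl1, whose value rests on 5 and 0 control counts, the pooled log2 fold change was 3.13 without control replicate 2 and 8.28 without control replicate 1, when the control count is 0. Its pooled call was lost without control replicate 2 (0.224), as were those in KO1 (0.135) and KO2 (0.197). For Loxl3 the pooled call was lost without control replicate 1 (0.404), control replicate 2 (0.278) or KO1 replicate 3 (0.112). The KO1 call of Loxl3 was lost without control replicate 1 (0.352), control replicate 2 (0.227), KO1 replicate 2 (0.114) or KO1 replicate 3 (0.220), and its KO2 call without control replicate 1 (0.330), control replicate 2 (0.222) or KO2 replicate 1 (0.102). The KO2 call of Loxl4 was lost without control replicate 1 (0.173) or 2 (0.146). Exons of Loxl3 overlap Htra2 on the opposite strand. Heparanase (Hpse), which cuts heparan sulfate chains, ranged from 0.0452 to 3.10 CPM and was not called.

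**Figure D3:**
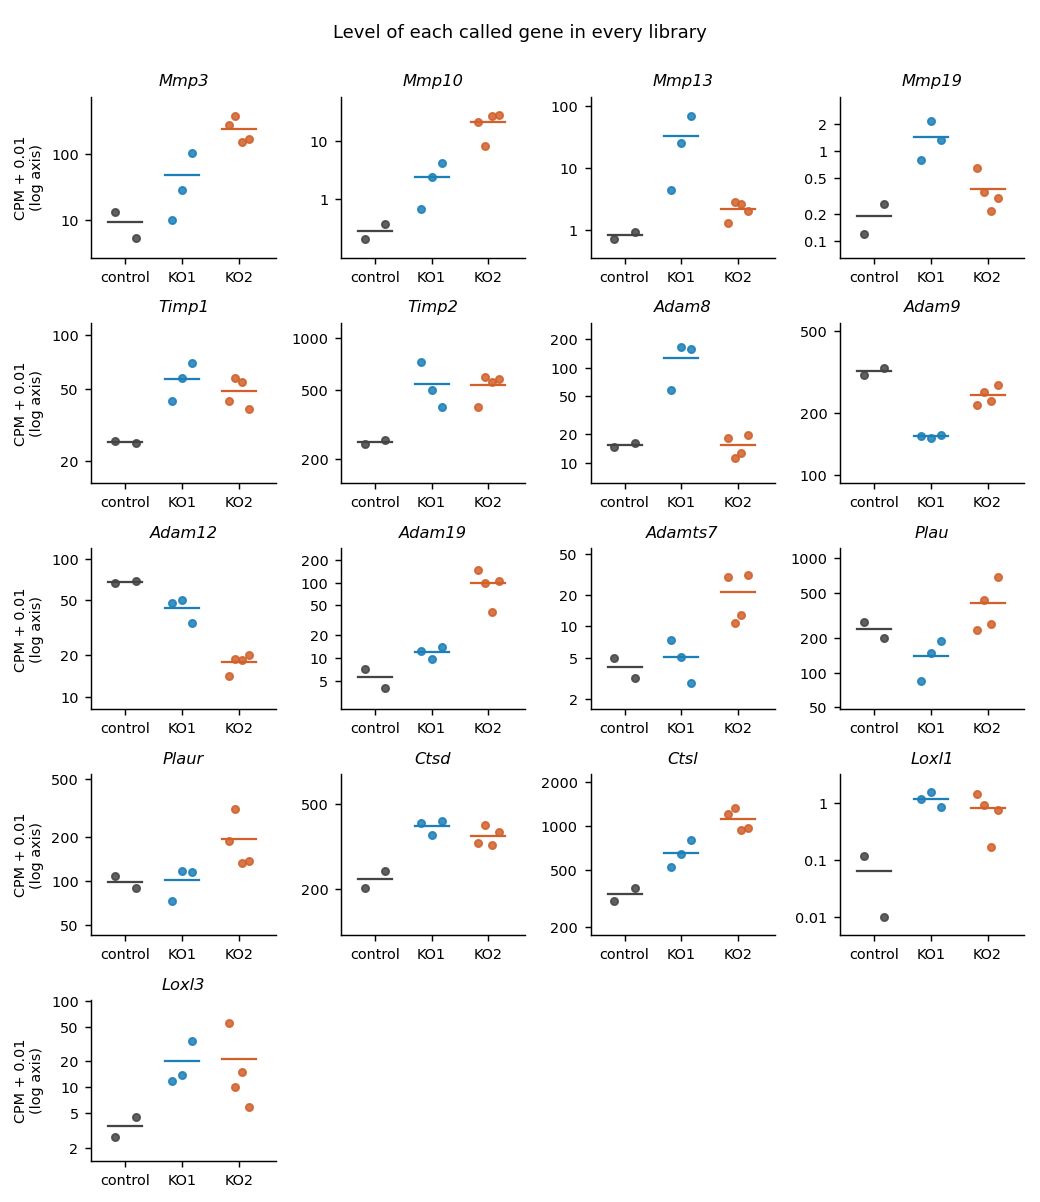
CPM + 0.01 of the 17 genes called in the pooled comparison or between clones, on a log axis; each point is a library (control n = 2, KO1 n = 3, KO2 n = 4) and each bar a group mean. Timp1, Timp2, Ctsd and Loxl1 are above control in both clones, Mmp13 and Adam8 are highest in the KO1 libraries, and Adam19 and Mmp10 are highest in the KO2 libraries.

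Divided by exon length, the mean levels in control were led by Ctsz (167 CPM per kb of exon), Plau (101), Ctsd (94.5), Adam9 (77.2), Timp2 (64.6), Mmp9 (53.0) and Ctsl (52.2). In KO2 the leading genes were Plau (172), Ctsl (171), Ctsz (161), Ctsd (151), Timp2 (137) and Mmp3 (133). In KO1 Ctsd (168), Ctsz (153), Timp2 (139) and Ctsl (101) led and Mmp3 stood at 26.3 CPM per kb. On this scale Mmp9 stood at 53.0 in control and 8.28 in KO2, and Mmp3 at 5.13 and 133. The order of close neighbours, such as Plau and Ctsl in KO2, was within the spread of the libraries. Exon length here joins all annotated exons of a gene, with 6489 bp for Ctsl, 2367 bp for Plau and 1441 bp for Ctsz. It can exceed the length of the transcripts present, and the order under other lengths was not tested.

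**Figure D4:**
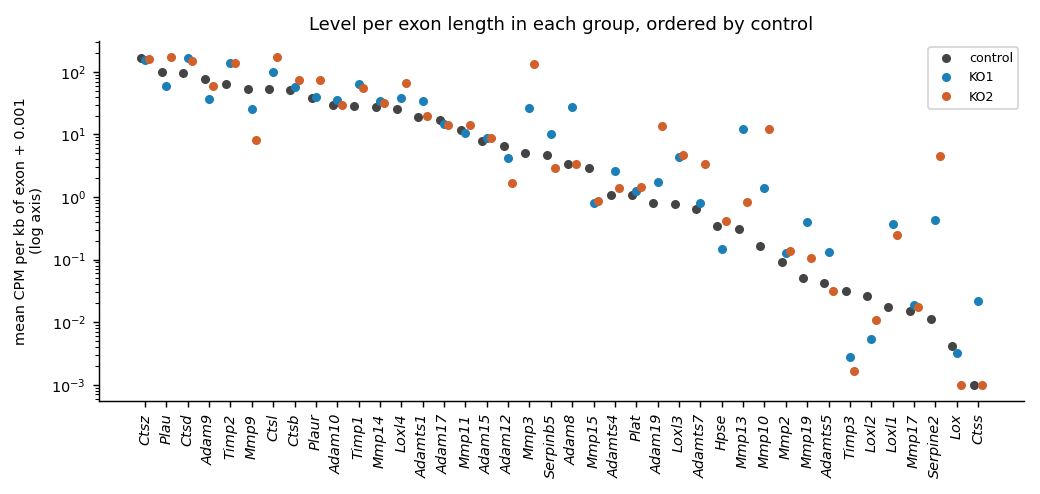
Mean CPM per kb of exon (+ 0.001, log axis) of all 40 genes in control (grey), KO1 (blue) and KO2 (orange), ordered by the control level. Ctsb, Ctsd, Ctsl, Ctsz and Timp2 stay between 50.9 and 171 in all groups, and Mmp3 climbs from 5.13 in control to 133 in KO2. Timp3, Loxl2, Lox, Ctss and Mmp17 stay under 0.031 in all groups.

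Of the 6 genes with TGANTCA printed above, Mmp3, Mmp10, Mmp13, Adam19 and Plaur were called against control in at least 1 clone, and Serpinb5 was not. Over all 36 tested genes this holds for 19 (52.8%), and over all genes for 44.3%. The 6 genes did not move as a set, since Mmp13 was higher in KO1 and Mmp3, Mmp10, Adam19 and Plaur in KO2.

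Other genes of the same systems were listed too: the remaining MMPs, proprotein convertases and other regulators, further ADAMs and ADAMTSs, plasminogen genes, cathepsins and cystatins, collagen-modifying enzymes and heparan sulfate genes. Of these 80 genes 49 could be tested, and with the clones pooled 5 rose (Mmp1b, Bsg, Pcsk6, Ctsa and Cst6) and 7 fell (Mmp23, Mmp28, Serpinf2, Plgrkt, Ctsk, Ctso and Ctsw), a share of 24.5% near the background of 22.6%. In KO1 5 rose and 12 fell (34.7%, background 31.6%), and in KO2 16 rose and 9 fell (51%, background 31.4%). Pcsk6, a convertase that activates proenzymes, stood at 0.241 and 0.732 CPM in control and at 6.09 to 24.5 CPM in knockout cells (log2 fold change 4.87 ± 0.76, adjusted p = 0.0039). The membrane-type Mmp23 stood at 3.42 and 3.72 CPM in control and at 0.245 to 0.813 CPM in knockout cells (-3.05 ± 0.39, adjusted p = 0.00185). Mmp1b gave 6.08 ± 2.24 (adjusted p = 0.0968), with knockout libraries that reached the control level. Pcsk6 and Mmp1b, and Mmp1a and Serpinb2 among the KO2 rises, reached the count filter in 2 libraries only through knockout cells. For these genes a level over the filter in knockout cells was a condition of being tested. The 12 collagen crosslinking and processing enzymes tested gave no call in the pooled comparison. In KO1 2 of them were lower (Plod1 and Bmp1, against a background of 31.6%), and in KO2 4 were higher (Plod3, Pxdn, P4ha1 and P4hb) and 1 lower (Tgm2, background 31.4%).

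ChIRP-seq peaks overlapped the gene body of 25 of the 40 genes (62.5%) in the list of the full oligo pool in 4T1 cells. Timp3, Loxl2, Lox and Ctss, which were not tested, are among these 25. Of the 36 genes tested 21 had such a peak, compared with 51.5% of the 14949 tested genes that could be placed. Genes with such a peak had a median length of 25449 bp and those without 13631 bp, with 18653 bp over all placed genes, and no test was made on these pooled lists. In the even and odd oligo pools 20 and 19 genes had a peak, 18 and 16 of them tested (backgrounds of 45.1% and 44.7% of tested genes). In the NDL cells 23 genes had a peak, 20 of them tested (background of 50.5%). The even list has no peak on chromosome 3, where Adam15 and Ctss lie. A peak in all 4 lists was found for 8 genes (Mmp13, Mmp15, Timp2, Adam9, Adam12, Adam19, Adamts4 and Adamts7) and in none for 9, among them Mmp9, Mmp10, Timp1, Adam8 and Ctsl. Of the 10 genes called in the pooled RNA comparison 5 had a peak in the full pool of 4T1 cells (Mmp3, Timp2, Adam12, Adam19 and Loxl1), and of all 36 tested 21 had one. Adam12, the longest of the 40 at 348948 bp, had the most peaks, with 19 in the full pool of 4T1 cells. The highest scores of the 40 genes in the full pool of 4T1 cells were 586.3 for a peak in an intron of Adam17 (rank 523 of 76806 peaks) and 578.9 for one at the transcript end of Adam15 (rank 551), and in NDL cells 562.1 for one at the promoter of Adamts4 (rank 405). Among the MMPs, an intron of Mmp13 held a peak at chr9:7278267-7278891 with a score of 345.4 (rank 2260), and NDL cells had one at chr9:7278071-7278896 with a score of 271.3. Mmp3 had only weak peaks in the 4T1 lists, with scores of 18.8 to 21.6.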

How the data were processed

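PolyA RNA-seq files of 9 libraries and 4 ChIRP-seq peak lists were used. The deposited RNA values are raw counts per gene: the authors aligned single-end reads with STAR (GRCm38) and assigned them to GENCODE vM5 genes by HTSeq. In the file of KO2 replicate 2 every gene appears 3 times with the same count, of which 1 was kept. Between 33.9 and 37.0% of counts were not assigned to a gene and were left out. Most of these were reads without a unique alignment, 24.13 to 27.45% of all counts. Deposited peak scores are those of HOMER, which the authors ran on pooled replicates against a Ppib pulldown, and the scale of these scores is not stated.

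The count test was edgeR 4.0.16 in R 4.3.3 (TMM, filterByExpr, quasi-likelihood test, Benjamini-Hochberg threshold of 0.1 as in the study, which used DESeq2). Both clones together formed 1 of 2 groups in the pooled fit, and a 3-group fit gave each clone and the clone difference. For individual genes a further comparison was a two-sided exact permutation test on log2(CPM + 1). Errors are standard errors from the fit. DESeq2 1.42.0, other filters, scalings and fits, and leaving out each library were alternatives. Peaks were assigned by overlap of at least 1 base with GENCODE vM21 genes, in Python 3.11.15. Positions and exon overlaps are from vM21.

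Members and lists were chosen with earlier results of these data known. Values in every library were given for genes called in the pooled comparison or between clones and for Mmp9, Mmp14, Timp1, Plau, Lox and Loxl2. Of the other pathway genes, the 3 called with the largest change and a mean of at least 1 CPM were named with values. Other names follow calls or were chosen after their values were seen.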

Additional observations from a re-analysis of the deposited data

Results flagged for a closer look

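In the KO2 clone, 1 of 4 libraries stood apart from the others for 2 of the 36 genes looked at, by the gap to its nearest neighbour against the whole range. About 1 in 20 groups is marked by chance. The highest KO2 library for Serpine2 was replicate 1 at 132 CPM, with the next at 16.9 CPM, and for Serpinb5 it was replicate 3 at 28.3 CPM, with the next at 2.20 CPM.

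The clones differed by the test of the difference itself for 12 genes, against 19.6% of all genes tested. The log2 fold changes of KO2 against KO1 were 2.34 for Mmp3, 3.10 for Mmp10, -3.89 for Mmp13, -1.94 for Mmp19, -3.03 for Adam8, 0.66 for Adam9, -1.31 for Adam12, 3.01 for Adam19, 2.06 for Adamts7, 1.53 for Plau, 0.92 for Plaur and 0.76 for Ctsl. Each clone is a single line, so clone and deletion cannot be told apart here.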

How the results depend on the processing

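Of the 36 genes tested, 10 were called with the clones pooled against control. The share of all genes called is given in parentheses and was 22.6% there. This number was 6 at a threshold of 0.05 (14.9%), 6 with the replicate number as a block (13%), 17 in the 3-group fit (33.1%) and 18 in DESeq2 (28.1%), and 1 to 11 with single libraries left out, with 1 without control replicate 1 (2.95%) and 2 without control replicate 2 (3.61%). The count without control replicate 2 includes Timp3, which is not among the 36. In KO1 the number called was 13 (31.6%), with 22 when KO2 was left out of the fit (54.1%). With single libraries left out it was at most 16 in KO1, without KO2 replicate 3 (36.4%). In KO2 it was 16 (31.4%), and at most 19 without KO2 replicate 3 (35.7%). In either clone fewer genes were called without a control library, and the share of all genes was smaller too. Between clones it was 12 (19.6%), with 6 without KO1 replicate 2 (5.79%) to 15 without KO2 replicate 3 (27.5%). The cause was not tested. Samples with the same replicate number did not deviate together (correlations of -0.196 to 0.0558 in 7 pairs, and -0.154 to 0.159 in 19 pairs of different number), and the labels give no pairing, so the numbers were not used as pairs. In the pooled comparison, log2 fold changes of uncalled genes reversed under the block for Mmp11 (-0.21), Mmp17 (-0.36), Plau (-0.17), Plat (-0.31), Ctsz (0.11) and Hpse (0.45). Leaving out single libraries reversed 5 genes in that comparison, over ranges of -0.11 to 0.24 for Mmp11, -0.46 to 1.77 for Mmp17, -0.015 to 0.37 for Adam15, -0.071 to 0.55 for Plau and -0.78 to 0.17 for Hpse. Under any alternative, the sign also turned for 7 uncalled genes in KO1, 11 in KO2 and 11 between clones, and for no called gene. Among peaks with a score of at least 100, the genes with a peak numbered 10 (even), 7 (odd), 14 (full pool) and 12 (NDL), and by the nearest promoter the even list gave 31. The other alternatives kept these counts within 1.5 times.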
